A study of Mus musculus with 4 samples.

Results

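The potassium channel genes are the gene symbols that begin with *Kcn*, 1 or more lower-case letters and a digit, leaving out 2 symbols by name. The rule gave 92 of the 23420 gene symbols counted, and the 61 that had 10 or more counts in at least 2 libraries were among the 14394 genes tested. They cover the pore-forming subunits of voltage-gated, calcium-activated, sodium-activated, inward-rectifier and two-pore-domain channels, and the accessory subunits that carry a *Kcn* symbol.

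The libraries came from cervical MNs (motor neurons) made from the mouse embryonic stem cell line E14, and compared 2 WT libraries (labelled wild type) with 2 *Patz1* KO libraries (labelled Patz1 -/-). *Patz1* encodes a zinc finger protein that binds G-rich DNA, and the study asked how its loss changes gene expression in these MNs. Both genotypes were grown with LIF and 2i, formed embryoid bodies and were patterned with retinoic acid and a smoothened agonist, so the WT cells carried the same culture treatment. Total RNA without ribosomal RNA was sequenced with a stranded kit. The KO cells came from CRISPR/Cas9 editing of E14 with a single guide, several KO lines were made, and which of them gave each library is not in the labels, so genotype and line cannot be told apart. The sample titles say ESC, whereas the source and cell type fields say MNs. The study describes its replicates as separate differentiations.

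Potassium channels let K+ leave or enter a cell down its electrochemical gradient. In neurons, leak and inward-rectifier channels set the resting potential, voltage-gated channels repolarize the membrane after each spike, and calcium-activated channels shape the afterhyperpolarization that paces firing. Spinal motor neurons are known for a long afterhyperpolarization carried by SK channels and for a pH-sensitive leak carried by TASK channels. Many of the channels are assembled from pore subunits together with cytoplasmic or single-pass partners that change their gating or trafficking.

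Library totals were 14769104 and 15728158 counts for WT against 23881522 and 17402342 counts for *Patz1* KO. Values are counts, or counts-per-million (CPM) on library sizes scaled with edgeR's TMM factors, and changes are log2 fold changes of *Patz1* KO over WT from edgeR's quasi-likelihood test with its standard error (SE) and a Benjamini-Hochberg adjusted p over all 14394 genes. A gene was called when the adjusted p was below 0.05. *Patz1* itself (chromosome 11, 3288874 to 3309083, plus strand, GRCm38) had 1363 and 1499 counts in WT against 1154 and 714 in *Patz1* KO, which is 91.5 and 94.2 CPM against 47.6 and 42.5 CPM. Its log2 fold change was -1.04 (SE 0.095, adjusted p = 9.93e-08), so the transcript was lower but still counted, and counts per gene do not show the edited alleles. Motor neuron markers were present in all libraries and 10 of 12 were called higher in *Patz1* KO, with a summed level of 1624 to 1709 CPM in WT and 2212 to 2349 CPM in *Patz1* KO. Of 15 pan-neuronal markers, 8 were called higher and 3 lower, with 6386 to 6873 CPM in WT and 9634 to 10310 CPM in *Patz1* KO. Of the 12 genes of the progenitor and cycling list, 4 were called higher and 5 lower, with 3170 to 3204 CPM in WT and 2669 to 2710 CPM in *Patz1* KO. Over all genes tested, 24.0% were called higher and 23.4% lower. The pluripotency gene *Pou5f1* had 3 to 7 counts in any library. In these bulk libraries, fewer cells of a type and less RNA per cell cannot be told apart.

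The potassium channel genes were called about as often as all genes, and 22 of their 29 calls were higher in *Patz1* KO. Of the 61 tested members, 22 were called higher in *Patz1* KO, 7 were called lower and 32 were not called. The share called in either direction was 47.54%, against 47.4% of all genes tested, a share near the background. The share called higher was 36.07% against a background of 24.0%, and the share called lower was 11.48% against 23.4%. The median log2 fold change of the members was 0.30, and that of all genes tested was 0.00. Calls with an absolute log2 fold change of at least 1 made up 18 of the 61 members, or 29.51%, against 12.8% of all genes. These shares were not matched for count level. They include the calls of *Kcnh5*, *Kcnh3* and *Kcns3*, which passed the count filter only through the genotype with the higher counts. The 2 WT values lay apart from the 2 KO values for 43 of the 61 members (28 higher and 15 lower in *Patz1* KO), a share of 70.49% that was below the background of 73.9%.

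**Figure D1:**
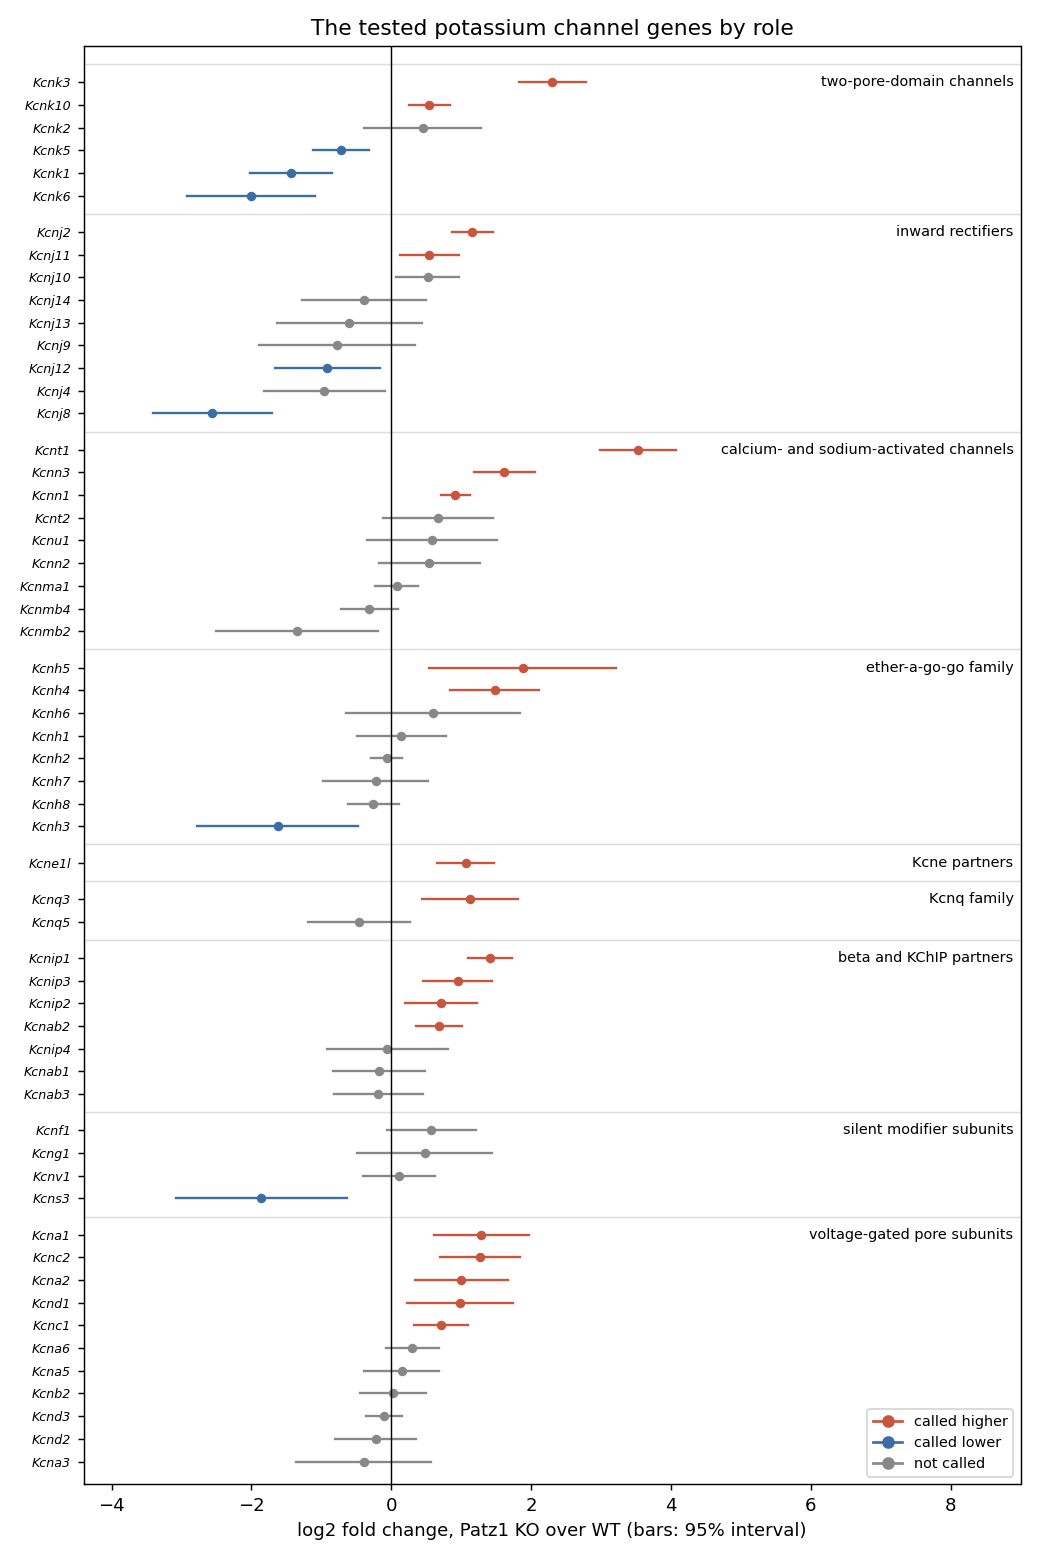
Log2 fold change of 57 of the tested potassium channel genes (*Patz1* KO over WT, x axis) with its 95% interval as a bar, grouped by role along the y axis. Red points are 20 genes called higher, blue points the 7 called lower and grey points 30 not called. The values run from -2.56 for *Kcnj8* to 3.53 for *Kcnt1*, and the blue points lie mostly among the inward rectifiers and the two-pore-domain channels.

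The summed level of all 92 members was 357.0 and 348.8 CPM in WT against 510.4 and 459.2 CPM in *Patz1* KO, a ratio of 1.37. The roles differed in that gap. The calcium- and sodium-activated channels summed to 64.8 and 65.8 CPM in WT and to 117.2 and 107.6 CPM in *Patz1* KO. The beta and KChIP partners summed to 30.1 and 26.8 CPM in WT against 53.1 and 48.4 CPM in *Patz1* KO. The ether-a-go-go family and the silent modifier subunits showed no such gap, with ratios of 0.982 and 1.06 and overlapping libraries. The voltage-gated pore subunits, the inward rectifiers and the two-pore-domain channels lay between, with ratios of 1.19, 1.40 and 1.16. Single genes weighed heavily in some sums. *Kcnj2* had mean levels of 9.19 CPM in WT and 20.6 CPM in *Patz1* KO, within inward rectifier sums of 28.8 and 40.2 CPM. The median log2 fold change of the tested inward rectifiers was -0.60. *Kcnk3* had 1.95 and 9.66 CPM, within two-pore-domain sums of 32.5 and 37.6 CPM. *Kcnn1* gave 33.3 and 62.8 CPM to its role, and *Kcnh2* gave 50.3 and 47.9 CPM.

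**Figure D2:**
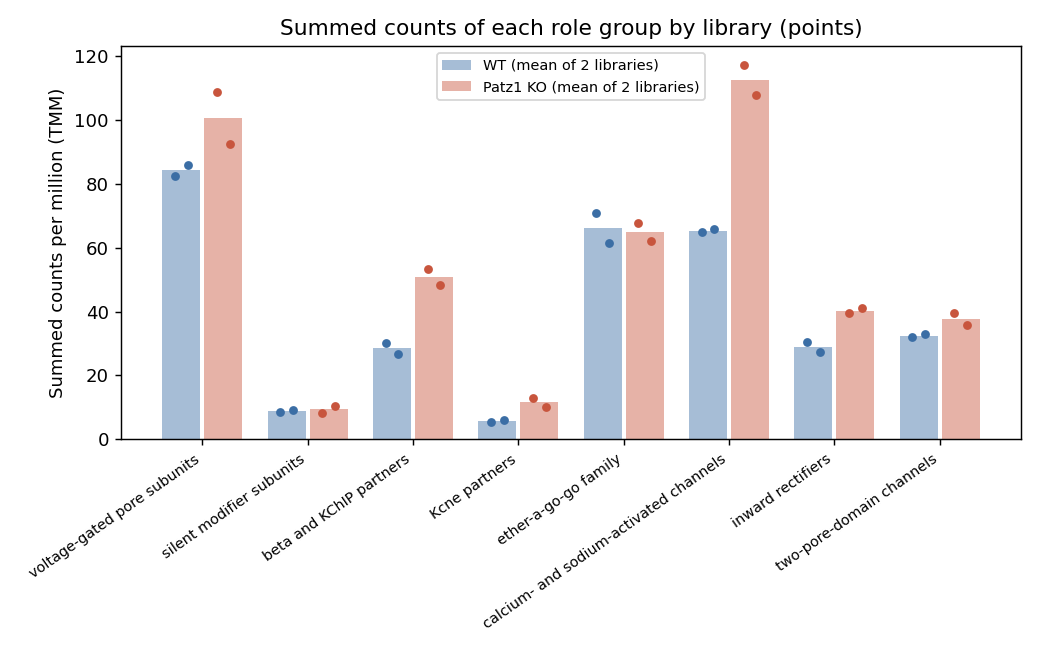
Summed TMM-normalized CPM of the role groups compared here (y axis) for WT (blue) and *Patz1* KO (red). Bars are means of 2 libraries and points are the single libraries. The calcium- and sodium-activated channels and the beta and KChIP partners show a wide separation between the genotypes, while the points of the ether-a-go-go family overlap.

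Per kilobase of exon, which allows levels of genes to be set beside each other, 2 genes stood above the rest. *Kcnn1*, which encodes the SK1 subunit of small-conductance calcium-activated channels, had 7.26 and 7.26 CPM per kb in WT and 14.2 and 13.1 CPM per kb in *Patz1* KO. *Kcnh2*, which encodes the ERG1 channel, had 11.2 and 9.54 CPM per kb in WT and 10.3 and 9.49 CPM per kb in *Patz1* KO. *Kcnh2* was therefore the highest member in WT and *Kcnn1* the highest in *Patz1* KO. By the mean of all 4 libraries, *Kcne1l* and *Kcnj2* were also among the 5 highest. Their group means were 3.40 and 1.69 CPM per kb in WT and 7.08 and 3.79 CPM per kb in *Patz1* KO. Within WT alone *Kcnj2* lay below *Kcnk5*. In WT, *Kcne1l* (3.13 and 3.67 CPM per kb) was next to *Kcnk5* (2.46 and 3.14 CPM per kb), and the libraries of these neighbours overlapped.

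Among the calcium- and sodium-activated channels, 3 of the 9 tested members (33.33%) were called higher and none was called lower. The shares over all genes were 24.0% and 23.4%. *Kcnt1* encodes Slack, a sodium-activated channel that opens when intracellular Na+ builds up during firing (chromosome 2, 25863734 to 25918273, plus strand). It had 15 and 18 counts in WT against 342 and 177 in *Patz1* KO. Every KO value was far above both WT values, and the mean level was 1.07 ± 0.088 CPM (SD, n = 2) in WT and 12.3 ± 2.52 CPM in *Patz1* KO. The change was 11.5-fold, a log2 fold change of 3.53 (SE 0.26, 95% interval 2.98 to 4.07, adjusted p = 5.98e-09), which was the largest change of any member. Its paralogue *Kcnt2* had 26 and 22 counts in WT against 40 and 59 in *Patz1* KO, and its CPM values overlapped (log2 fold change 0.67, adjusted p = 0.149). Without *Patz1* KO replicate 1 the value of *Kcnt2* was 1.17 and passed the test (adjusted p = 0.0022).

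Of the SK genes, *Kcnn1* and *Kcnn3* were called higher. *Kcnn3* (SK3, chromosome 3, 89520164 to 89675132, plus strand) had 43 and 46 counts in WT against 215 and 149 in *Patz1* KO. Its libraries nearly coincided within each genotype, at 2.89 and 2.89 CPM in WT and 8.86 and 8.87 CPM in *Patz1* KO (log2 fold change 1.62, SE 0.21, adjusted p = 5.37e-06). *Kcnn1* (chromosome 8, 70842049 to 70863258, minus strand) had 496 and 530 counts in WT against 1585 and 1013 in *Patz1* KO. The rise was smaller in fold than that of *Kcnn3* but came from a much higher level, 33.3 ± 0.023 CPM in WT and 62.8 ± 3.55 CPM in *Patz1* KO (log2 fold change 0.92, SE 0.098, adjusted p = 5.92e-07). Exons of *Kcnn1* overlap those of *A230052G05Rik* on the other strand, and whether the counting used strand is not given in the sources used here. *Kcnn2* (SK2), with 28 and 20 counts in WT against 45 and 47 in *Patz1* KO, was not called (0.55, 95% interval -0.18 to 1.27) but passed the test without *Patz1* KO replicate 1 (0.84, adjusted p = 0.0437). *Kcnn4*, the intermediate-conductance channel, had at most 13 counts in any library.

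The genes of the BK channel were not called. *Kcnma1*, which encodes its pore, had 214 and 246 counts in WT against 429 and 227 in *Patz1* KO, and after scaling the libraries interleaved at 14.4 and 15.5 CPM in WT and 17.7 and 13.5 CPM in *Patz1* KO. The log2 fold change was 0.08 with a 95% interval of -0.23 to 0.39. Its beta subunits *Kcnmb2* and *Kcnmb4* were not called, with log2 fold changes of -1.35 and -0.31. The adjusted p of *Kcnmb2* was 0.052, it passed the test in 7 of the alternatives tried, and its value was -2.73 (adjusted p = 8.89e-04) without *Patz1* KO replicate 1 and -1.82 (adjusted p = 0.0132) without WT replicate 1. *Kcnu1*, a pH-sensitive relative known from sperm, had 9 to 25 counts and was not called (0.58, adjusted p = 0.299).

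**Figure D3:**
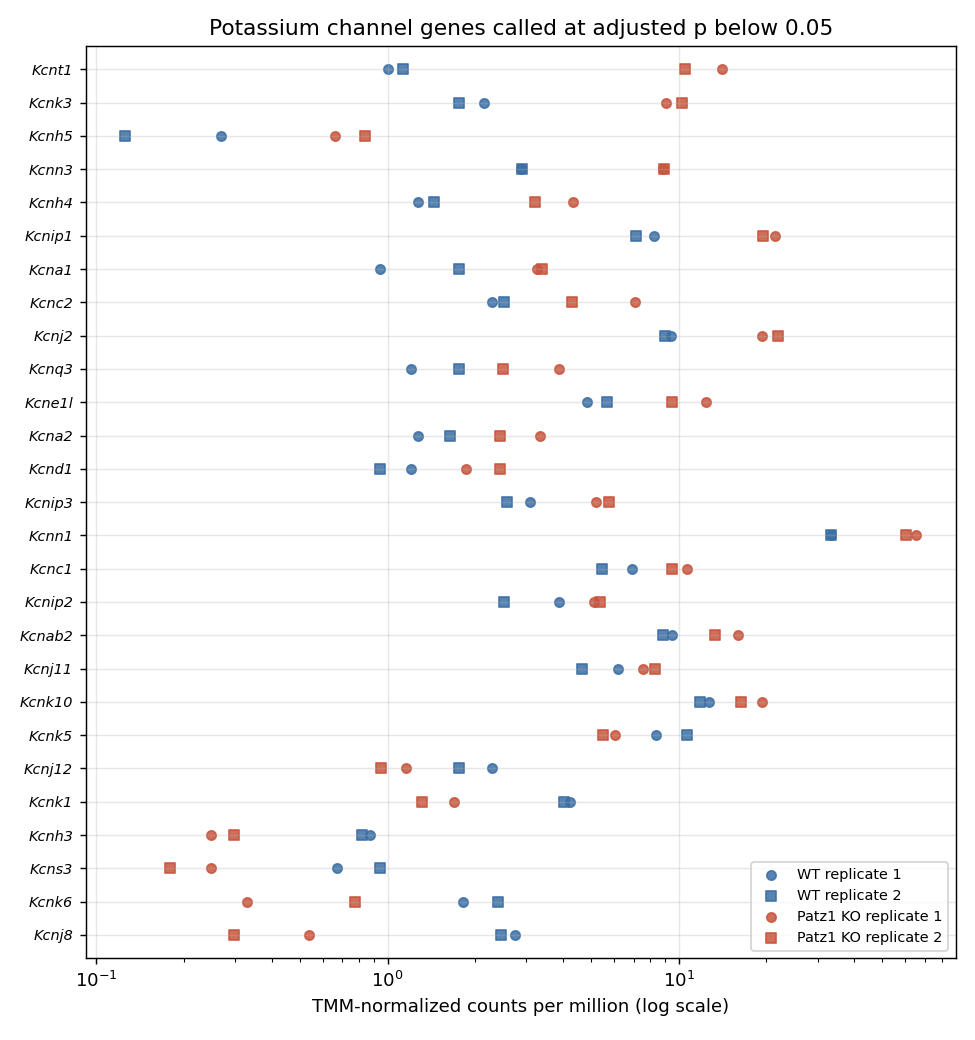
TMM-normalized CPM (x axis, log scale) of 27 called potassium channel genes in each of the 4 libraries, ordered by log2 fold change. Blue symbols are WT and red symbols *Patz1* KO, with circles for replicate 1 and squares for replicate 2. In every row the blue and red symbols lie apart, and *Kcnt1* at the top shows the widest gap.

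The voltage-gated pore subunits had 5 of 13 tested members (38.46%) called higher and none lower, against 24.0% and 23.4% of all genes. *Kcna1* and *Kcna2*, which encode the Kv1.1 and Kv1.2 subunits of axonal low-threshold channels, had 14 and 28 and 19 and 26 counts in WT. They had 79 and 57 and 81 and 41 counts in *Patz1* KO, with no overlap between genotypes after scaling. Their log2 fold changes were 1.28 (SE 0.32, adjusted p = 0.0032) and 1.00 (SE 0.32, adjusted p = 0.0145). Both calls were lost without WT replicate 1 (adjusted p 0.0862 and 0.139), and that of *Kcna2* also without *Patz1* KO replicate 1 (adjusted p = 0.0955) and by DESeq2 (adjusted p = 0.105). *Kcna1* lies 61.9 kb from *Kcna6* and 105.0 kb from *Kcna5* on chromosome 6, and *Kcna2* lies 63.1 kb from *Kcna3* on chromosome 3. These 3 neighbours were not called, with log2 fold changes of 0.30 for *Kcna6*, 0.15 for *Kcna5* and -0.40 for *Kcna3*. *Kcna6* was the most counted of the Kcna genes, at 6.91 and 7.92 CPM in WT and 10.1 and 8.04 CPM in *Patz1* KO, and it passed the test without *Patz1* KO replicate 2 (0.45, adjusted p = 0.0262).

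*Kcnc1* and *Kcnc2* encode Kv3.1 and Kv3.2, fast channels that allow high firing rates, and both rose. *Kcnc2* (chromosome 10, 112271121 to 112467024, plus strand) had 34 and 40 counts in WT against 172 and 72 in *Patz1* KO. Both KO values were above WT, although they differed from each other at 7.09 and 4.29 CPM (log2 fold change 1.27, SE 0.27, adjusted p = 9.42e-04). Without *Patz1* KO replicate 1, which had the higher value, the log2 fold change was 0.83 and the call remained. *Kcnc1* had 103 and 87 counts in WT against 260 and 159 in *Patz1* KO (log2 fold change 0.71, adjusted p = 0.0038, and 0.0853 without WT replicate 2).

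Of the Kcnd genes, *Kcnd1* was called and *Kcnd2* and *Kcnd3* were not. *Kcnd3* (Kv4.3), a subunit of A-type channels, had 321 and 317 counts in WT against 495 and 304 in *Patz1* KO, with a log2 fold change of -0.10 (95% interval -0.36 to 0.16). *Kcnd2* had -0.22, and the delayed rectifier gene *Kcnb2* was not called either (0.03). *Kcnd1* (Kv4.1) was called higher (0.98, adjusted p = 0.0328), with 18 and 15 counts in WT against 45 and 41 in *Patz1* KO. That call was lost by DESeq2 (adjusted p = 0.171) and without either WT library or *Patz1* KO replicate 2 (adjusted p 0.0788, 0.23 and 0.0825).

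Of the cytoplasmic partners of these channels, 4 of 7 tested beta and KChIP genes (57.14%) were called higher and none lower. For all genes the shares were 24.0% and 23.4%. KChIP proteins are calcium-binding partners of Kv4 channels, and *Kcnip1* (chromosome 11, 33629339 to 33993152, minus strand) had 123 and 114 counts in WT against 519 and 328 in *Patz1* KO. Its levels were 8.25 and 7.17 CPM in WT and 21.4 and 19.5 CPM in *Patz1* KO, well apart (log2 fold change 1.41, SE 0.15, adjusted p = 4.27e-07). *Kcnip3* went from 46 and 41 counts (WT) to 126 and 97 (*Patz1* KO) (0.95, SE 0.24, adjusted p = 0.0030, and 0.0517 without WT replicate 2). *Kcnip2* had 58 and 40 counts in WT against 124 and 90 in *Patz1* KO (0.71, adjusted p = 0.0243), and its call was lost by DESeq2 (adjusted p = 0.116) and without WT replicate 2 (adjusted p = 0.343). *Kcnip4* was not called (-0.05). Among the beta subunits of Kv1 channels, *Kcnab2* rose from 9.46 and 8.86 CPM in WT to 16.0 and 13.3 CPM in *Patz1* KO (0.69, adjusted p = 0.0014), and its exons overlap those of *Gm16334* on the same strand. *Kcnab1* and *Kcnab3* were not called, with *Kcnab3* at 40 and 34 counts in WT against 59 and 29 in *Patz1* KO (-0.18, 95% interval -0.83 to 0.46).

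Proteins outside the *Kcn* names also build these complexes, and a list of 11 such genes was examined in the same fit. Of 10 tested, 6 were called higher and 1 lower (median log2 fold change 0.57), against 24.0% and 23.4% of all genes. *Cntnap2*, which encodes the adhesion protein that clusters Kv1 channels along axons, had 170 and 180 counts in WT against 777 and 539 in *Patz1* KO (1.50, adjusted p = 2.16e-08). *Dpp6*, a transmembrane partner of Kv4 channels, had 198 and 161 counts in WT against 639 and 434 in *Patz1* KO (1.16, adjusted p = 2.20e-06). *Adam23*, *Dlg2*, *Dlg4* and *Amigo1* were the other 4 called higher, at 0.82, 0.86, 0.70 and 0.44. The call of *Amigo1* was lost by DESeq2 (adjusted p = 0.12) and without either WT library (adjusted p = 0.149 without WT replicate 1 and 0.13 without WT replicate 2). *Dlg1* fell (-0.77), *Dpp10*, *Cntn2* and *Adam22* were not called, and *Lgi1* was not tested.

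The Kcnq family holds subunits of the M-current channels that damp repeated firing. *Kcnq3*, which encodes such a subunit, was called higher, with 18 and 28 counts in WT against 94 and 42 in *Patz1* KO (log2 fold change 1.12, SE 0.33, adjusted p = 0.0088). Its call was lost by DESeq2 (adjusted p = 0.0649), without WT replicate 1 (adjusted p = 0.105) and without *Patz1* KO replicate 1 (adjusted p = 0.0899). *Kcnq5* was not called, with 23 and 41 counts in WT against 40 and 22 in *Patz1* KO, overlapping values of 1.54 and 2.58 CPM against 1.65 and 1.31 CPM, and a log2 fold change of -0.46 (95% interval -1.20 to 0.27). *Kcnq1*, the cardiac and epithelial member, had at most 3 counts in each library and was not tested.

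The Kcne genes encode small single-pass partners of Kcnq and other channels, and only *Kcne1l* was counted well enough to be tested. It lies on the X chromosome (142304752 to 142306294, minus strand) and had 72 and 90 counts in WT against 300 and 159 in *Patz1* KO. At 4.83 and 5.66 CPM in WT and 12.4 and 9.47 CPM in *Patz1* KO the groups did not overlap (log2 fold change 1.07, SE 0.19, adjusted p = 1.91e-04). *Kcne1*, *Kcne2*, *Kcne3* and *Kcne4* had at most 10 counts in any library.

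In the ether-a-go-go family all 8 members were tested, and 2 (25.0%) were called higher, 1 (12.5%) lower and 5 not. Over all genes the shares were 24.0% higher and 23.4% lower. *Kcnh2* (chromosome 5, 24319589 to 24351604, minus strand) had the most counts of the family, 810 and 735 in WT against 1208 and 772 in *Patz1* KO. Its libraries overlapped at 54.3 and 46.2 CPM in WT and 49.8 and 46.0 CPM in *Patz1* KO, and the log2 fold change was -0.07 with a 95% interval of -0.29 to 0.15. *Kcnh4*, which encodes an ELK-type channel (chromosome 11, 100740376 to 100759942, minus strand), had 19 and 23 counts in WT against 105 and 54 in *Patz1* KO. Both KO libraries were above both WT libraries (log2 fold change 1.48, SE 0.30, adjusted p = 6.01e-04). *Kcnh5* was called higher from very few counts, 4 and 2 in WT and 16 and 14 in *Patz1* KO (1.88, 95% interval 0.55 to 3.21, adjusted p = 0.0209). It passed the count filter through the *Patz1* KO libraries alone. Its call was lost by DESeq2 (adjusted p = 0.169) and without WT replicate 2 (adjusted p = 0.223). *Kcnh3* was called lower, with 13 and 13 counts in WT against 6 and 5 in *Patz1* KO (-1.63, adjusted p = 0.0202), and its exons overlap those of *Mcrs1* on the other strand. It passed the count filter through the WT libraries alone. The call of *Kcnh3* was lost by DESeq2 (adjusted p = 0.188) and without either WT library or *Patz1* KO replicate 1 (adjusted p 0.109, 0.0995 and 0.0739). *Kcnh1*, *Kcnh6*, *Kcnh7* and *Kcnh8* were not called (0.15, 0.59, -0.22 and -0.26).

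Of the 9 tested inward rectifiers, 2 were called higher and 2 lower, 22.22% in each direction against 24.0% and 23.4% of all genes, and the median log2 fold change was -0.60. *Kcnj2* encodes Kir2.1, the classical strong inward rectifier that holds the resting potential (chromosome 11, 111066164 to 111076821, plus strand). It had 140 and 143 counts in WT against 470 and 367 in *Patz1* KO. The rise from 9.39 and 8.99 CPM in WT to 19.4 and 21.9 CPM in *Patz1* KO left a wide gap between the genotypes (log2 fold change 1.16, SE 0.14, adjusted p = 2.63e-06). The other Kir2 genes went the opposite way or were not called. *Kcnj12* (Kir2.2) was called lower, with 34 and 28 counts in WT against 28 and 16 in *Patz1* KO (-0.91, adjusted p = 0.0424), and that call was lost by DESeq2 (adjusted p = 0.22) and without either WT library or *Patz1* KO replicate 2 (adjusted p 0.297, 0.0852 and 0.0738). *Kcnj4* (Kir2.3), at 21 and 20 counts in WT against 17 and 11 in *Patz1* KO, had -0.96 and an adjusted p of 0.0634, which fell to 0.0419 when 10 counts were required in every library. *Kcnj14* (Kir2.4) was not called (-0.40).

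The genes of the ATP-sensitive channels moved in opposite directions by subunit pair. These channels are built from a Kir6 pore and a sulphonylurea receptor (SUR), with Kir6.2 and SUR1 typical of neurons and endocrine cells and Kir6.1 and SUR2 typical of smooth muscle and pericytes. *Kcnj8* (Kir6.1, chromosome 6, 142564837 to 142571614, minus strand) had 41 and 39 counts in WT against 13 and 5 in *Patz1* KO, the strongest fall of any tested member (log2 fold change -2.56, SE 0.41, adjusted p = 5.14e-05). *Abcc9* (SUR2), 16.2 kb away with no protein-coding gene between, had 24 and 16 counts in WT against 10 and 9 in *Patz1* KO (-1.47, adjusted p = 0.0147). The call of *Abcc9* was lost by DESeq2 (adjusted p = 0.132), without WT replicate 1 (adjusted p = 0.209) and without *Patz1* KO replicate 1 (adjusted p = 0.0521). *Kcnj11* (Kir6.2, chromosome 7, 46093953 to 46100764, minus strand) had 92 and 74 counts in WT against 183 and 139 in *Patz1* KO (0.55, SE 0.20, adjusted p = 0.0327). Its call was lost by DESeq2 (adjusted p = 0.131) and without WT replicate 2 (adjusted p = 0.346). *Abcc8* (SUR1), 3.8 kb from *Kcnj11*, rose, with 55 and 62 counts in WT against 273 and 191 in *Patz1* KO (1.57, adjusted p = 2.16e-06).

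**Figure D4:**
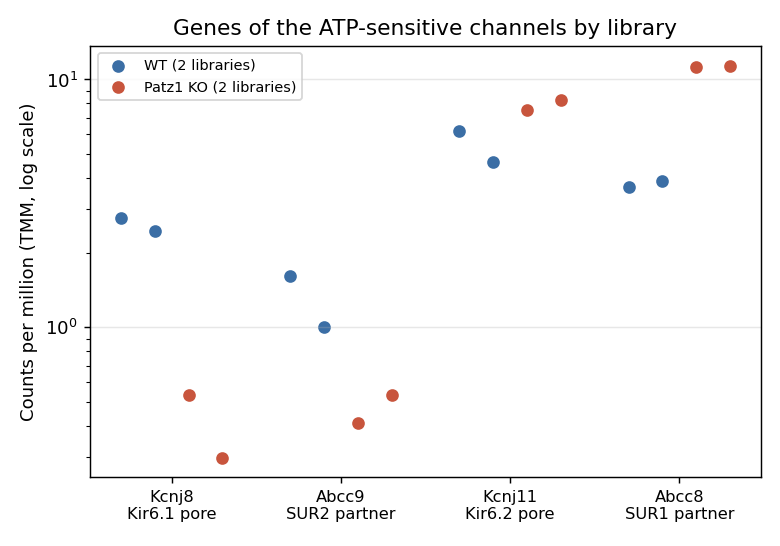
TMM-normalized CPM (y axis, log scale) of the 4 ATP-sensitive channel genes in each library, WT in blue and *Patz1* KO in red. Both KO points of *Kcnj8* and *Abcc9* lie below both WT points, and both KO points of *Kcnj11* and *Abcc8* lie above them.

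Markers of other cell types moved with the Kir6.1 pair. All 9 tested of the 10 genes on the mesenchyme list were called lower, and their summed level was 191.0 to 198.7 CPM in WT and 37.7 to 46.2 CPM in *Patz1* KO. Of the 8 genes on the endothelial and blood list, 7 were tested and 4 were called lower, at 18.6 to 19.2 CPM in WT and 12.9 to 14.7 CPM in *Patz1* KO. Of the 10 endoderm genes, 9 were tested and 7 were called lower, at 55.0 to 65.8 CPM in WT and 9.40 to 9.71 CPM in *Patz1* KO. The share of all genes called lower was 23.4%. No gene of these 3 lists was at 0 in all libraries, and their part in the falls of *Kcnj8*, *Kcns3*, *Kcnk1*, *Kcnk5* and *Kcnk6* was not tested. In the muscle list 1 of 4 tested genes was called lower, with 12.1 to 12.4 CPM in WT and 9.77 to 10.2 CPM in *Patz1* KO, and *Ckm* was at 0. In the pluripotent list 2 of 5 tested genes were called lower, with 9.39 to 12.3 CPM in WT and 6.02 to 7.98 CPM in *Patz1* KO, and *Utf1* was at 0.

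The remaining inward rectifiers were near the threshold or rare. *Kcnj10* (Kir4.1), the potassium-buffering channel of astrocytes, had 62 and 68 counts in WT against 156 and 94 in *Patz1* KO, with the KO libraries above WT at 6.43 and 5.60 against 4.16 and 4.28 CPM. Its log2 fold change of 0.52 (95% interval 0.07 to 0.96) had an adjusted p of 0.0516, and it passed the test in 5 alternatives, with adjusted p between 0.0152 and 0.0493. Beside it, the glia and oligodendrocyte list had 3 of 8 tested genes called higher and 2 lower, against 24.0% and 23.4% of all genes. The list summed to 182.7 to 197.5 CPM in WT and 236.1 to 255.9 CPM in *Patz1* KO. Its genes *Gfap* and *Aqp4* had too few counts to be tested, and the part of the list in the level of *Kcnj10* was not tested. *Kcnj9* and *Kcnj13* were not called (-0.77 and -0.60). *Kcnj3*, *Kcnj5* and *Kcnj6*, which with *Kcnj9* encode the G-protein-gated channels, had at most 12 counts in any library and were not tested.

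The two-pore-domain leak channels gave calls in both directions, 2 higher and 3 lower of 6 tested, against 24.0% and 23.4% of all genes. *Kcnk3* encodes TASK-1, an acid-sensitive leak channel known from motor neurons (chromosome 5, 30588170 to 30625271, plus strand). It had 32 and 28 counts in WT against 220 and 172 in *Patz1* KO. Mean levels were 1.95 ± 0.27 CPM (SD, n = 2) for WT and 9.66 ± 0.83 CPM for *Patz1* KO, a 4.92-fold rise (log2 fold change 2.30, SE 0.23, adjusted p = 2.54e-07). Exons of *Gm9899* overlap it on the other strand. *Kcnk10* (TREK-2, a mechanically and lipid gated channel) had more counts and a smaller rise, 189 and 189 in WT and 468 and 274 in *Patz1* KO (0.54, SE 0.14, adjusted p = 0.0039), whereas *Kcnk2* (TREK-1), at 20 and 13 counts in WT against 42 and 19 in *Patz1* KO, was not called (0.45, 95% interval -0.40 to 1.29).

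The 3 members that fell belong to the TWIK and TASK-2 branches of the same superfamily. *Kcnk1* (TWIK-1, chromosome 8, 125995170 to 126030685, plus strand) had 63 and 64 counts in WT against 41 and 22 in *Patz1* KO (-1.43, SE 0.28, adjusted p = 4.13e-04), and *Gm45875* overlaps its exons on the other strand. *Kcnk6* (TWIK-2, chromosome 7, 29221926 to 29232515, minus strand) had 27 and 38 counts in WT against 8 and 13 in *Patz1* KO (-2.01, SE 0.44, adjusted p = 9.94e-04). *Kcnk5* (TASK-2, an alkaline-activated channel of epithelia and some brainstem neurons, chromosome 14, 20140057 to 20181809, minus strand) was also called lower. By the mean of all 4 libraries it had the highest level per kilobase of the role. It had 125 and 170 counts in WT against 147 and 92 in *Patz1* KO, and the scaled values were lower in both KO libraries, at 8.39 and 10.7 CPM in WT and 6.06 and 5.48 CPM in *Patz1* KO. The log2 fold change was -0.72 (SE 0.19, adjusted p = 0.0044), and the call was lost without WT replicate 2, which had the higher WT value (-0.53, adjusted p = 0.138). *Kcnk12* had 3 to 9 counts and was not tested.

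The silent modifier subunits form no channel of their own and change the Kv2 channels they join. Of 4 tested, none was called higher and 1 (25.0%) lower, against 24.0% and 23.4% of all genes. *Kcns3* passed the count filter through the WT libraries alone. It was the gene called lower, with 10 and 15 counts in WT against 6 and 3 in *Patz1* KO (-1.86, SE 0.58, adjusted p = 0.0140). That call rests on few counts and was lost by DESeq2 (adjusted p = 0.145) and without WT replicate 2 (adjusted p = 0.17). *Kcnv1*, the most counted of the group, had 56 and 51 counts in WT against 93 and 61 in *Patz1* KO and overlapping levels of 3.76 and 3.21 against 3.83 and 3.63 CPM (0.11, 95% interval -0.41 to 0.62). *Kcnf1* and *Kcng1* were not called (0.57 and 0.48). *Kcnf1* passed the test without *Patz1* KO replicate 1 (0.83, adjusted p = 0.0272).

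Of the 31 members not tested, *Kcna10* and *Kcnk15* had no count in any library, 12 including these had at most 3 counts in every library, and 19 had more than 3 in at least 1. The 12 were *Kcna7*, *Kcna10*, *Kcnc4*, *Kcne2*, *Kcnj1*, *Kcnk4*, *Kcnk15*, *Kcnk16*, *Kcnk18*, *Kcnmb3*, *Kcnq1* and *Kcnv2*. A count of at most 3 sits at the limit that a count of 0 allows, so no fold is given for them. The 19 were *Kcna4*, *Kcne1*, *Kcne3*, *Kcne4*, *Kcng2*, *Kcng3*, *Kcng4*, *Kcnj3*, *Kcnj5*, *Kcnj6*, *Kcnj15*, *Kcnj16*, *Kcnk7*, *Kcnk12*, *Kcnk13*, *Kcnmb1*, *Kcnn4*, *Kcns1* and *Kcns2*. With no filter on low counts, *Kcnmb1* (18 and 9 counts in WT, 4 and 6 in *Patz1* KO) and *Kcns1* (8 and 9 counts in WT, 3 and 0 in *Patz1* KO) were called lower with adjusted p of 0.0281 and 0.0227, and DESeq2 called none of the 31. *Kcnmb1* lies on the plus strand of chromosome 11 within the span of *Kcnip1*, which lies on the minus strand. *Kcnj16* lies 38.2 kb from *Kcnj2* and had 1 to 6 counts, and *Kcnk16* lies 79.6 kb from *Kcnk5* and had 0 to 3.

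Channels and pumps that work beside the potassium channels were read from the same fit. HCN channels carry the hyperpolarization-activated cation current, and *Hcn2*, *Hcn3* and *Hcn4* were called higher. *Hcn2* had 58 and 59 counts in WT against 363 and 256 in *Patz1* KO (1.99, adjusted p = 6.02e-08), and *Hcn3* and *Hcn4* rose less (0.94 and 0.36). The call of *Hcn4* was lost by DESeq2 (adjusted p = 0.145), with library size alone (adjusted p = 0.0652), without WT replicate 1 (adjusted p = 0.21) or 2 (adjusted p = 0.127), and without *Patz1* KO replicate 1 (adjusted p = 0.11). Of 11 genes for the sodium-potassium pump and the potassium-chloride cotransporters, 5 were called higher and 2 lower (median log2 fold change 0.16). Among all genes the shares were 24.0% and 23.4%. The chloride extruder *Slc12a5* (KCC2) rose (0.47) and the chloride loader *Slc12a2* (NKCC1) fell (-0.89). Besides *Abcc8* and *Abcc9*, the ATP-sensitive and BK channel partner list had 1 more tested gene, *Lrrc55* (0.92, adjusted p = 0.0941).

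A list of 10 oxygen-response genes, such as *Pdk1* and *Bnip3*, also moved with the genotype: all 9 tested were called higher, with a summed level of 208.2 to 210.2 CPM in WT and 638.1 to 846.5 CPM in *Patz1* KO. Of the 12 interneuron genes 11 were tested, and 7 were called higher and 1 lower, with 31.4 to 31.8 CPM in WT and 49.1 to 50.7 CPM in *Patz1* KO. Beside these list counts, 24.0% of all genes were called higher and 23.4% lower. The part of the neuronal, interneuron and oxygen-response levels in the 22 potassium channel rises was not tested.

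Promoter sequences of the members were compared because PATZ1 binds G-rich DNA. RefSeq promoter entries (250 bases before to 50 after each start, GRCm38.p6) were found for 68 of the 92 members, 93 entries in all. The motifs searched were GGGAGGG, a G-rich string, and ACGTG, the core of the hypoxia response element, on both strands. The 250 bases before the start are shown for the promoters of 3 members that rose and of *Kcnj8*, the member with the strongest fall, which was added after its values were seen. Promoters of the other called members are not shown, so the motifs seen here do not stand for them. Over whole entries, 4 of the 25 entries of members called higher held ACGTG. Each stretch is written 5′ to 3′ on the strand of the gene. Capitals mark every match to either motif, and where matches overlap on both strands the run of capitals is longer.
Kcnn3, chr3:89519914-89520163, plus strand: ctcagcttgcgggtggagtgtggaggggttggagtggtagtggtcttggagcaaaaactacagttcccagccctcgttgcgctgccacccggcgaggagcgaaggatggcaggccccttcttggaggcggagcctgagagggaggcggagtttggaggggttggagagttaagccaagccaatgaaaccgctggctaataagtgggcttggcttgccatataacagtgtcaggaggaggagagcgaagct
Kcnj2, chr11:111065914-111066163, plus strand: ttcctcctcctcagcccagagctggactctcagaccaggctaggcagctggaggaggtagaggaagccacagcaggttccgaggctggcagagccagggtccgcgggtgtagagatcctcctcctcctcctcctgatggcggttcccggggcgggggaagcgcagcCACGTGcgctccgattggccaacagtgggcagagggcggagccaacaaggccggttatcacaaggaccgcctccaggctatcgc
Kcnh4, chr11:100759779-100760028, minus strand: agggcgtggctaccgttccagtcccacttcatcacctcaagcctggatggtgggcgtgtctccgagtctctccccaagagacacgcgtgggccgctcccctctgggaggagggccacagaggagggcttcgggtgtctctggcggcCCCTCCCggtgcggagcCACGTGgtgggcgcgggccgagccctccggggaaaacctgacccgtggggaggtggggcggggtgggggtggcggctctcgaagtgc
Kcnj8, chr6:142571615-142571864, minus strand: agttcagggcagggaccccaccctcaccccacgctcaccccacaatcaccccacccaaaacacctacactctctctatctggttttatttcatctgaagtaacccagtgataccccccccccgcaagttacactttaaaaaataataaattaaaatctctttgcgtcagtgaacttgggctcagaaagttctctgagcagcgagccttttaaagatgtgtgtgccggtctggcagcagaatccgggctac
The *Kcnj2* stretch holds ACGTG on both strands, 84 and 83 bases before the start, as the palindrome CACGTG. The *Kcnh4* stretch holds the same palindrome 87 and 86 bases before the start and GGGAGGG on the reverse strand 104 bases before it, and the *Kcnn3* and *Kcnj8* stretches hold neither motif.

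Over whole entries, GGGAGGG was found in 35 of the 93 member entries (37.63%) and in 21.95% of all 32851 entries. It was found in 12 of the 25 entries of members called higher, 1 of the 6 of members called lower and 11 of the 30 of tested members not called, and the other entries belong to members not tested. The shares were 48.0% of the entries of members called higher (95% exact interval 27.8 to 68.7%) and 36.67% of those of uncalled members (19.9 to 56.1%), and the intervals overlap. In the 100 bases before the start the order was the opposite, with 6 of 25 entries (24.0%) for members called higher and 10 of 30 (33.33%) for uncalled members. ACGTG was found in 16 of the 93 member entries (17.2%) and in 19.62% of all entries, with 4 of 25, 1 of 6 and 5 of 30 in the same classes. Several entries belong to the same gene and share sequence, so they are not independent, and a match in letters is a description and not a binding site.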

How the data were processed

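RNA-seq of 4 libraries of cervical MNs was used, 2 WT and 2 *Patz1* KO, grouped by the genotype field. Per the labels, reads were mapped to mm10, and the submitters' processing notes list TopHat2 2.1.1, Bowtie2 2.3.1, featureCounts 1.6.2 and DESeq2. The authors deposited raw counts per gene symbol. The annotation and strand setting of the counting are not given in the sources used here.

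Genes with 10 or more counts in at least 2 libraries were TMM-normalized, and edgeR 4.0.16 gave the test (glmQLFit and glmQLFTest, limma 3.58.1, R 4.3.3) with Benjamini-Hochberg adjustment over all 14394 genes. The SE was computed as the size of the log2 fold change over the root of F. The test was checked on simulated counts with 200 changed genes, whereas 6822 genes were called here. That check does not cover so many changes. No permutation test was run, since for 2 libraries in each group the exact test cannot go below p = 0.333. P-values measure the spread between these libraries (biological coefficient of variation 7.71%), and the spread within each genotype was larger than sampling noise (chi-square per gene 10.5 in WT and 23.4 in *Patz1* KO). The reads carry no molecular identifiers, so statements on low counts cover counting error only. Positions, exon lengths and exon overlaps came from GENCODE M21 on GRCm38, where all 92 members were found by the same symbol, and 28 of them share exon bases with another gene.

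The members and the partner and marker lists were chosen with earlier results of these data known. Values by library were given by rule for the 12 called members with the largest absolute log2 fold change among those with a mean of 50 or more counts, for the member of each role with the highest level per kilobase, the smallest p among its called members and the most counts among its uncalled members, and for the 5 highest levels per kilobase. Protein stretches planned with this rule are not shown. Values of some members and list genes are not reported here, although the counts over members and lists include them. Values of other members, and of the partner genes named, were chosen after they were seen. Alternatives were DESeq2 1.42.0 (the Wald test of the study's methods), its size factors, no scaling beyond library size, TMM with the 20 most counted genes left out, 3 filters on low counts, robust estimation, a test against an absolute log2 fold change of 1, the replicate number as a block and leaving out each library, where a lone library is assumed to vary like the other group. Tables and plots were made with Python 3.11.15, pandas 2.3.3 and matplotlib 3.10.9.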

Additional observations from a re-analysis of the deposited data

How the results depend on the processing

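None of the 29 called members changed direction in any alternative that tested it, and 16 of them were called in every alternative that tested them other than the test against an absolute log2 fold change of 1. When 10 counts were required in every library, the called members *Kcnj8*, *Kcnk6*, *Kcnh3*, *Kcnh5* and *Kcns3* were left out and not tested. The test against an absolute log2 fold change of 1 called 4 members higher and 1 lower. It called 9 partner genes higher and 0 lower, and 9 marker genes higher and 16 lower. *Kcnt1*, *Kcnk3*, *Kcnn3* and *Kcnip1* were called in all 14 alternatives, and *Kcnj8* in the 13 that tested it. The number of members called lower, 7, became 4 with DESeq2 and 4 when 10 counts were required in every library, and 3 to 7 when single libraries were left out, the 3 being without WT replicate 2. The number called higher, 22, became 16 with DESeq2 and 16 to 24 with single libraries left out. Over all genes, DESeq2 called 5118, the test against log2 1 called 711 and leaving out single libraries gave 4570 to 7782, against 6822. Library size alone moved the median of all genes to -0.03. Same-numbered WT and KO libraries did not deviate together (correlation over genes 0.005). The labels do not say whether a number marks a shared differentiation, and this correlation cannot settle it. With the replicate block, 24 members were called higher and 8 lower, *Kcnj10* and *Kcnmb2* were among those gained, and *Kcnb2* had -0.002. Other changes of sign were in uncalled members with a library left out, with lowest and highest values of -1.15 to 0.17 for *Kcna3*, -0.373 to 0.069 for *Kcnab1*, -0.475 to 0.021 for *Kcnab3*, -0.27 to 0.24 for *Kcnb2*, -0.601 to 0.032 for *Kcnd2*, -0.16 to 1.02 for *Kcng1*, -0.22 to 0.61 for *Kcnh1*, -0.175 to 0.053 for *Kcnh2*, -0.27 to 0.10 for *Kcnip4* and -0.142 to 0.249 for *Kcnma1*. The uncalled partner gene *Dpp10* ranged from -0.342 to 0.011 in the same way. *Slc2a1* (oxygen response list), called higher, lost its call with DESeq2 (adjusted p = 0.241), robust estimation (adjusted p = 0.207) and without *Patz1* KO replicate 2 (adjusted p = 0.213). In the 100 bases before the start, 24.73% of member entries held GGGAGGG and 7.527% held ACGTG, against 11.13% and 8.091% of all entries. The cause of these changes was not tested.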
